A study of Mus musculus with 18 samples.

Results

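The comparison described here sets left ventricular myocardium of DKO mice against that of FFFF mice 1 day after ischemia/reperfusion (I/R). It was taken from the sample labels, which give 3 arrays for each genotype at that day, so 6 of the 18 arrays of the series belong to it. DKO mice lack CaMKIIδ and CaMKIIγ in cardiomyocytes, because both copies of Camk2d and of Camk2g are floxed and Cre recombinase is expressed under the cardiomyocyte-specific α-MHC promoter. FFFF mice carry the same floxed alleles without Cre, and the labels call them wild-type (noCre). Both genotypes were on a mixed 129/Sv and C57BL/6 background, were 10 to 15 weeks old at surgery, and underwent 60 min of occlusion of the left anterior descending coronary artery before reperfusion. The other 12 arrays come from DKO and FFFF hearts after sham surgery and 5 days after I/R (3 arrays in each group), and they are used only where the difference at 1 day is set against that of another day. Fibroblasts, endothelial cells and leukocytes do not express the α-MHC promoter, so such cells in DKO hearts still have an intact kinase gene.

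Ca2+/calmodulin-dependent protein kinase II is a multimeric serine/threonine kinase that is activated by Ca2+/calmodulin and by oxidation, and in the heart it phosphorylates proteins of calcium handling, ion channels and repressors of gene transcription. Reperfusion of ischemic myocardium is followed within a day by entry of neutrophils and then of monocytes, which are drawn by chemokines and held by adhesion molecules on activated endothelium. The question of the comparison is which transcripts differed between hearts with and without cardiomyocyte CaMKIIδ and CaMKIIγ while that early inflammation was under way.

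All values are log2 expression values of 1 feature per gene, and a difference is the mean of the arrays labelled DKO minus the mean of the FFFF arrays. The markers of the defining cells of this tissue were present. The 21 cardiomyocyte structural genes had mean values between 11.92 and 12.28 in the arrays labelled DKO and between 11.79 and 12.25 in FFFF arrays, whereas the 18 T and NK cell genes averaged 4.37 to 4.51 in the arrays labelled DKO and 4.43 to 4.55 in FFFF arrays, near the median of 4.85 over all features of an array. The 6 arrays were not equally spread. The median SD of a gene was 0.142 among the arrays labelled DKO and 0.117 among FFFF arrays, and 277 genes of the arrays labelled DKO, against 93 of the FFFF arrays, had an SD over 1. DKO replicate 2 stood apart from the rest: 1042 genes lay more than 1 from the FFFF mean in it (658 below and 384 above), compared with 108 in the array labelled DKO replicate 1 and 117 in DKO replicate 3. The labels do not name the animals, so the p-values measure only the spread between these arrays, which may be technical.

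Both targeted genes were measured in every array. Camk2d (Entrez gene 108058, chromosome 3), which encodes the main cardiac isoform, had values of 9.71, 7.90 and 8.31 in the arrays labelled DKO replicates 1, 2 and 3, against 9.66, 9.59 and 9.83 in FFFF hearts. Camk2g (Entrez gene 12325, chromosome 14) had values of 7.10, 5.99 and 6.21 in the arrays labelled DKO, against 7.37, 7.0 and 7.16 in FFFF hearts. The array labelled DKO replicate 1 thus lay within the FFFF range for both genes and against its label, while DKO replicates 2 and 3 lay below every FFFF array. Whether the probes of these features cover the deleted exons was not determined.

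The difference of Camk2d was -1.05 (standard error 0.32, limma adjusted p = 0.65), and that of Camk2g was -0.74 (standard error 0.26, adjusted p = 0.67). With the array labelled DKO replicate 1 left out, the differences were -1.59 (adjusted p = 0.0017) and -1.07 (adjusted p = 0.14), a widening that follows from leaving out the highest DKO value. Esr1, the gene of estrogen receptor α, is outside the rule by which genes were named and was picked with its values in view. It separated the same arrays more widely, with 4.83 in the array labelled DKO replicate 1 and 10.06 and 9.72 in DKO replicates 2 and 3, against 5.64, 5.00 and 4.82 in FFFF hearts. In sham hearts Esr1 was 11.91, 11.83 and 11.86 in DKO and 5.04, 4.83 and 4.70 in FFFF, and at 5 days it was 5.04, 4.80 and 11.40 in the arrays labelled DKO and 5.21, 5.03 and 5.01 in FFFF. Esr1 was therefore high in 6 of 9 arrays labelled DKO and in 0 of 9 FFFF arrays of the series. The 2 arrays labelled DKO at 5 days with low Esr1 did not go against their label in the targeted genes: at 5 days Camk2d was 8.42, 8.42 and 8.87 in the arrays labelled DKO and 9.67, 9.50 and 9.27 in FFFF hearts, and Camk2g was 6.46, 6.34 and 6.04 in the arrays labelled DKO and 7.09, 7.70 and 6.76 in FFFF hearts. Because of the array labelled DKO replicate 1, many of the results below are given with it and without it. Where no value without it is given, it is included.

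**Figure D1:**
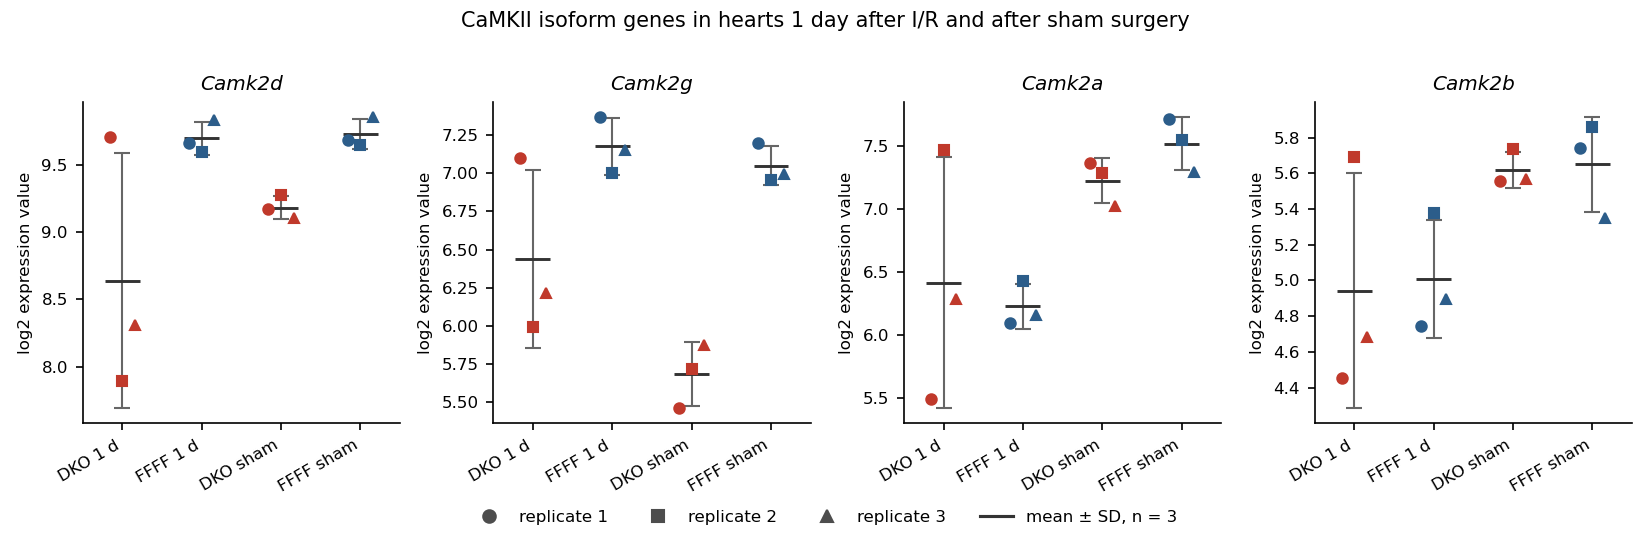
Log2 expression values (vertical axes) of the 4 CaMKII isoform genes in the arrays labelled DKO and FFFF, 1 day after I/R and after sham surgery; symbols mark the replicate number of a group, and bars give the mean ± SD of 3 arrays. For Camk2d, the array labelled DKO replicate 1 sits at 9.71 within the FFFF range, and the other 2 DKO arrays sit at 7.90 and 8.31.

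The isoforms that were not targeted gave no called difference. Camk2a, the isoform best known from neurons, had 5.49, 7.47 and 6.29 in the arrays labelled DKO and 6.10, 6.43 and 6.16 in FFFF hearts (difference 0.19, adjusted p = 0.97). Camk2b had 4.46, 5.69 and 4.68 in the arrays labelled DKO and 4.75, 5.38 and 4.90 in FFFF hearts (difference -0.06, adjusted p = 0.99). In sham hearts, Camk2a was above 7 in all 6 arrays, so DKO replicate 2 held a sham-like level of this gene 1 day after I/R. Camk2n1, which encodes an endogenous inhibitor of the kinase, had 7.46, 8.04 and 6.74 in the arrays labelled DKO and 6.79, 7.32 and 6.40 in FFFF hearts, where each array labelled DKO lay above the FFFF array of the same number (difference 0.58, standard error 0.30, adjusted p = 0.78). The labels overlapped in this gene. No label pairs arrays by number, here or below, and the share of all features with such an order was not counted.

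Over all 24479 features, limma called 0 genes at an adjusted p under 0.05 (0% of those tested), and 1639 genes (6.7%) had an unadjusted p under 0.05, of which 703 (2.87%) were below 0 and 936 (3.82%) above. Gene-wise analysis of variance also called 0 genes, and a variance trend in the moderation called 1. No single gene of the lists below therefore passed the test in either direction with all 6 arrays, and the groups are described by their values, by counts of their members and by medians, beside the same numbers for all features. The median difference of all features was 0.01, and 47.4% of them lay below 0.

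Chemokines were read by class. Of the 8 genes for ligands and receptors that attract neutrophils, 7 had a difference below 0, with a median of -0.80, and in 5 of 8 the values of DKO replicates 2 and 3 were below all 3 FFFF values, which held for 9.51% of all features. Without the array labelled DKO replicate 1 the median was -1.29, and without DKO replicate 2 it was -0.23. Cxcr2, the main chemokine receptor of neutrophils, had 8.36, 4.61 and 6.18 in the arrays labelled DKO and 8.43, 6.99 and 8.47 in FFFF hearts. Ppbp, a platelet-derived ligand of that receptor, had 8.65, 5.56 and 6.27 in the arrays labelled DKO and 8.20, 7.49 and 8.71 in FFFF hearts. For both genes, the array labelled DKO replicate 1 was as high as FFFF hearts and DKO replicate 2 was the lowest of the 6.

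Of the ligands of Cxcr2 that are made by injured tissue, Cxcl3 had 5.20, 3.84 and 4.10 in the arrays labelled DKO and 4.67, 5.72 and 5.58 in FFFF hearts (difference -0.94, standard error 0.29, adjusted p = 0.66). Cxcl2 had 4.38, 3.87 and 4.27 in the arrays labelled DKO and 4.38, 4.44 and 4.84 in FFFF hearts (difference -0.38, standard error 0.13, adjusted p = 0.67). It was near the floor and did not pass the filter on low values. Cxcl5 had 8.05, 5.54 and 7.89 in the arrays labelled DKO and 7.25, 8.19 and 8.71 in FFFF hearts (difference -0.89, standard error 0.54, adjusted p = 0.81). The ligands did not share the order of the arrays: in Cxcl3 both DKO replicates 2 and 3 were near the sham level, which was 3.66 to 3.86 over both genotypes, whereas in Cxcl5 DKO replicate 3 stayed close to FFFF hearts. Cxcl1 differed by -0.30 (standard error 0.40, adjusted p = 0.93), with 6.39, 5.06 and 7.10 in the arrays labelled DKO and 5.78, 6.53 and 7.14 in FFFF hearts, so only DKO replicate 2 lay below the FFFF range. Pf4, the platelet ligand encoded beside Ppbp, had a difference of -0.72 (adjusted p = 0.83). Cxcr1, the second receptor of this class, was near the floor in all 6 arrays (4.29 to 4.66 in the arrays labelled DKO and 4.39 to 4.57 in FFFF hearts).

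Cxcl1, Cxcl2 and Cxcl3 lie in one cluster on chromosome 5 and are textbook targets of NF-κB, the transcription factor of acute inflammation. Their upstream sequences are shown because they share one stretch of letters although their array values did not share an order. The last 100 bases before the RefSeq start of each gene (build GRCm38.p6, forward strand) follow, with the longest run common to all 3 upstream windows in capitals:
Cxcl1, chr5:90891145-90891244: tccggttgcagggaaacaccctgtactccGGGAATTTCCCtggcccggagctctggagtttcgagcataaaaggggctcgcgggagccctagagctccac
Cxcl2, chr5:90903799-90903898: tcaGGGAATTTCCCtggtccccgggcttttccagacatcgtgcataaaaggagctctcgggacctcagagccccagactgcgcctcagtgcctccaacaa
Cxcl3, chr5:90786001-90786100: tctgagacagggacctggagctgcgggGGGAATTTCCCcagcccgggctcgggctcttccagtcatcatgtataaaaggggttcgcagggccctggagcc

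The shared run GGGAATTTCCC has 11 letters, which include the form of an NF-κB site, and it begins 71 bases before the start of Cxcl1, 97 before that of Cxcl2 and 73 before that of Cxcl3. On either strand it was in 14 of 32851 upstream windows of 250 bases (0.0426%), and those 14 include the 3 genes from which it was taken. It was in none of the other neutrophil-attracting genes with a window (7 in all, these 3 included) and in 0 of 8 CC ligand genes. The run describes letters only and is no measure of binding.

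Of the 14 CC ligands, which draw mainly monocytes and lymphocytes, 12 had a difference below 0, with a median of -0.34. The median was -0.40 without the array labelled DKO replicate 1, and without DKO replicate 2 it was -0.05, with 9 of 14 below 0. Ccl3 had 5.74, 4.45 and 4.83 in the arrays labelled DKO and 6.55, 5.33 and 6.93 in FFFF hearts (difference -1.26, standard error 0.76, adjusted p = 0.81). Ccl6 had 9.12, 6.51 and 7.89 in the arrays labelled DKO and 9.29, 8.92 and 9.19 in FFFF hearts (difference -1.29, standard error 0.66, adjusted p = 0.77). In Ccl3 and in Ccl6, each array labelled DKO was below the FFFF array of the same number, but the labels overlapped and do not pair the arrays. Ccl2, the main monocyte attractant, had 9.61, 6.12 and 9.57 in the arrays labelled DKO and 9.66, 9.10 and 9.80 in FFFF hearts, so its difference of -1.09 (adjusted p = 0.86) rested on DKO replicate 2 and was 0.07 without that array. Ccl12 and Ccl17 differed by -0.73 and -0.39 (adjusted p = 0.80 and 0.73).

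Among the 7 CC receptors, 5 differences were below 0, and 3 without DKO replicate 2 (median -0.04 with it and 0.03 without it). Ccr1, the receptor of Ccl3 on myeloid cells, had 7.02, 4.13 and 5.55 in the arrays labelled DKO and 7.04, 6.18 and 7.48 in FFFF hearts (difference -1.33, standard error 0.53, adjusted p = 0.70). Ackr2 and Cx3cl1 lay on the other side of 0. Ackr2, a decoy receptor that clears CC chemokines, had 6.21, 6.54 and 6.02 in the arrays labelled DKO and 5.57, 6.19 and 5.88 in FFFF hearts (difference 0.38, adjusted p = 0.74). Cx3cl1, the membrane-bound chemokine fractalkine, had 6.76, 6.81 and 6.39 in the arrays labelled DKO and 6.16, 6.26 and 6.06 in FFFF hearts. All 3 values labelled DKO were above all 3 FFFF values in Cx3cl1 (difference 0.49, standard error 0.18, adjusted p = 0.67), a separation seen in 5.94% of all features. Cx3cl1 belongs to the class of 13 other CXC and CX3C ligands and receptors, which did not lean. Of these 13 genes, 6 had a difference below 0 (median 0.02), and 2 were separated in the way of Cx3cl1.

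**Figure D2:**
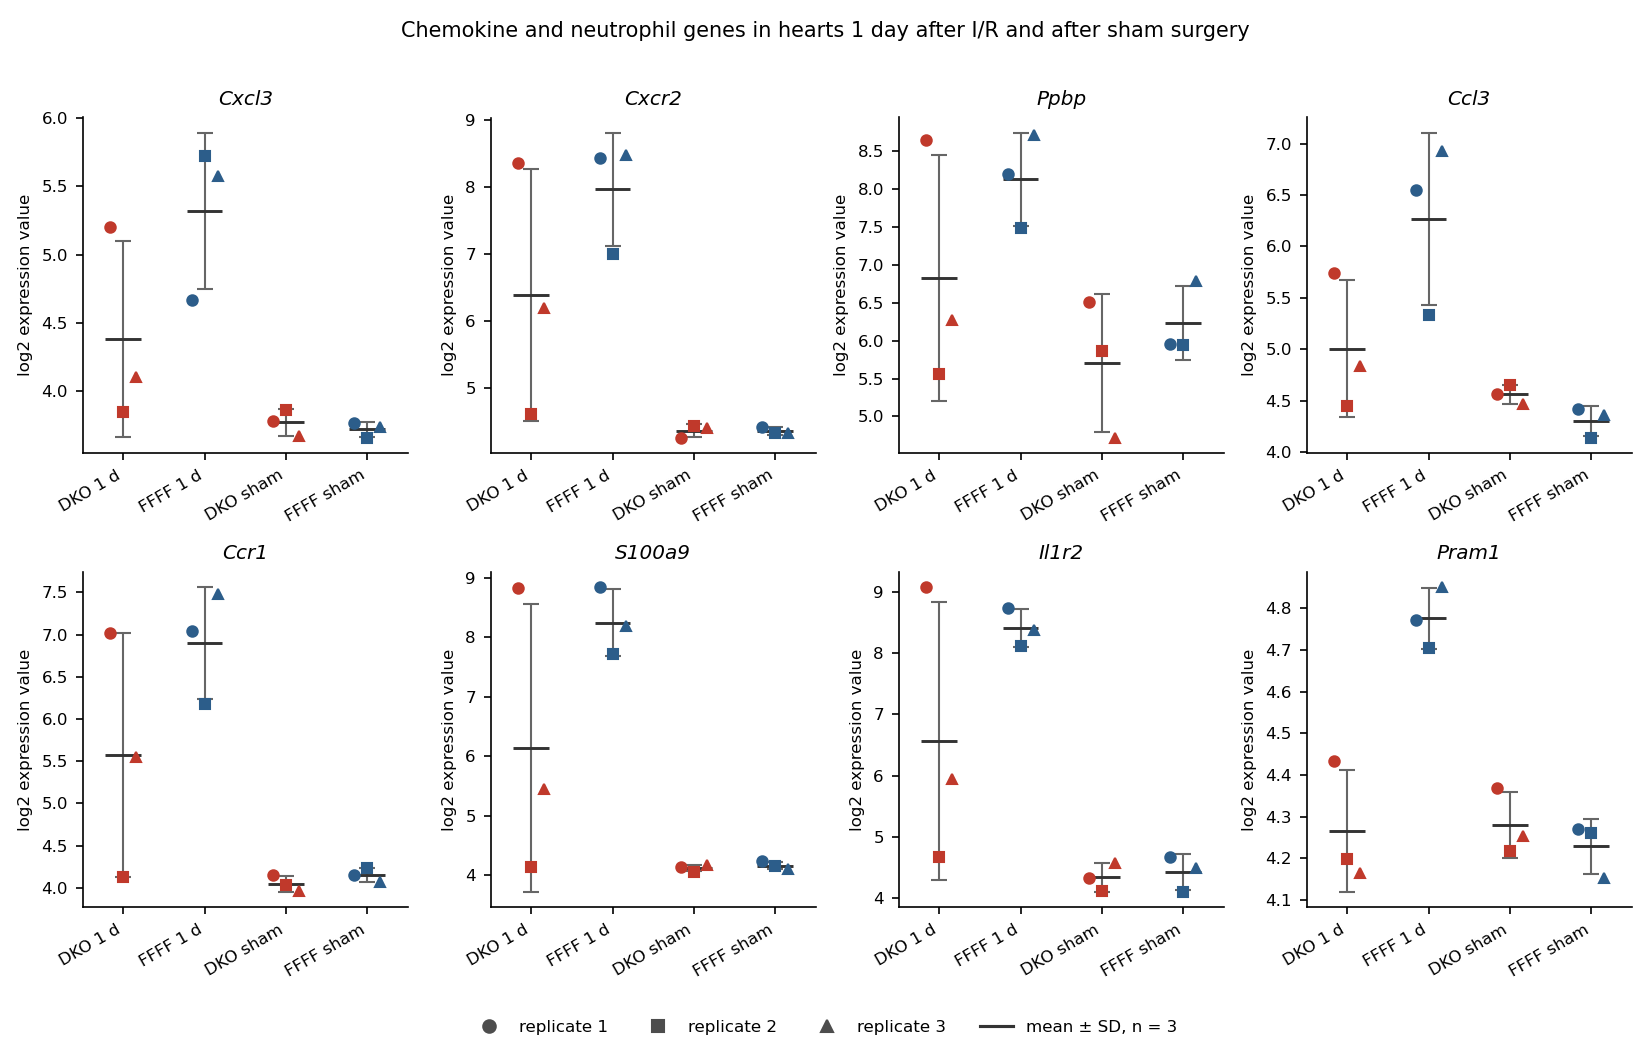
Log2 expression values (vertical axes) of chemokine genes (Cxcl3, Cxcr2, Ppbp, Ccl3, Ccr1) and of neutrophil or myeloid genes (S100a9, Il1r2, Pram1), 1 day after I/R and after sham surgery; symbols mark the replicate number, and bars give the mean ± SD of 3 arrays. In Cxcr2, S100a9 and Il1r2 the array labelled DKO replicate 1 lies with the FFFF arrays and DKO replicate 2 lies at or near the sham level, whereas in Pram1 all 3 arrays labelled DKO lie below the FFFF arrays.

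The genes of neutrophils themselves were read next. In bulk tissue, fewer cells of a type and less RNA per cell cannot be told apart. All 17 genes of neutrophil surface and signaling proteins had a difference below 0, with a median of -0.72, and in 14 of 17 DKO replicates 2 and 3 were below all FFFF arrays (9.51% of all features were). Their mean value was 6.30, 4.40 and 5.17 in the arrays labelled DKO and 6.28, 5.55 and 6.37 in FFFF hearts, and 4.23 to 4.31 in the 6 sham hearts. DKO replicate 2 was thus close to the sham hearts, and the array labelled DKO replicate 1 was within the FFFF range. The median difference was -1.15 without the array labelled DKO replicate 1 and -0.30 without DKO replicate 2.

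S100a9, a calcium-binding alarmin of neutrophils, had the most negative difference of all features: 8.83, 4.14 and 5.45 in the arrays labelled DKO and 8.84, 7.71 and 8.19 in FFFF hearts (difference -2.11, standard error 0.77, adjusted p = 0.68). Its partner S100a8 had 8.91, 3.96 and 4.42 in the arrays labelled DKO and 8.27, 6.53 and 6.45 in FFFF hearts. Il1r2, the decoy receptor of interleukin-1, had 9.07, 4.67 and 5.94 in the arrays labelled DKO and 8.74, 8.12 and 8.38 in FFFF hearts (difference -1.85, standard error 0.72, adjusted p = 0.69). These 3 genes repeated the pattern of Cxcr2, with DKO replicate 2 at the sham level and DKO replicate 3 between it and FFFF hearts. Without the array labelled DKO replicate 1, the differences were -3.45 for S100a9 (adjusted p = 0.0011), -2.89 for S100a8 (adjusted p = 0.011) and -3.11 for Il1r2 (adjusted p = 0.0011), and without DKO replicate 2 they were -1.11, -0.42 and -0.91. The array labelled DKO replicate 1 held the highest DKO value of all 3 genes, so the wider gaps follow from leaving it out. The fit takes the spread of a gene from all groups. S100a9 was at 4.06 to 4.23 in sham hearts and 4.05 to 4.65 at 5 days, and Il1r2 at 4.10 to 4.67 and 4.48 to 4.68. The small p-values of these 2 genes thus rest in part on arrays near the floor. This leave-out was not run with the compared groups alone.

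Genes of the neutrophil's receptors followed the same order of arrays with smaller gaps. Csf3r, the receptor of granulocyte colony-stimulating factor, had 8.36, 5.20 and 6.70 in the arrays labelled DKO and 8.94, 7.39 and 8.45 in FFFF hearts (difference -1.51, adjusted p = 0.72). Fpr1, a receptor of bacterial and mitochondrial formyl peptides, had 4.35, 3.88 and 4.15 in the arrays labelled DKO and 4.81, 4.23 and 5.14 in FFFF hearts (difference -0.60, standard error 0.17, adjusted p = 0.65). Ly6g, the antigen by which mouse neutrophils are usually identified, was low but separated the groups in full, with 3.97, 3.72 and 3.93 in the arrays labelled DKO and 4.16, 3.99 and 4.53 in FFFF hearts (difference -0.36, adjusted p = 0.66), as in 3.88% of all features.

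Granule proteins were divided. Of 12 genes, 8 had a difference below 0, with a median of -0.17 (-0.56 without the array labelled DKO replicate 1 and -0.02 without DKO replicate 2). Mmp9, the gelatinase of neutrophil granules, had 7.80, 4.65 and 5.51 in the arrays labelled DKO and 8.52, 6.40 and 8.20 in FFFF hearts (difference -1.72, standard error 0.64, adjusted p = 0.68), and Mmp8, neutrophil collagenase, had 6.36, 4.25 and 4.87 in the arrays labelled DKO and 5.75, 5.74 and 6.58 in FFFF hearts (difference -0.87, adjusted p = 0.73). The primary granule genes Elane and Mpo, which are transcribed in bone marrow precursors and were named with their values in view, were at 4.13 to 4.90 in the arrays labelled DKO and at 4.20 to 4.63 in FFFF hearts, with differences of 0.15 and 0.11.

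Other myeloid genes depended more on single arrays. Of 8 genes of recruited monocytes 7 had a difference below 0 (median -0.38, -0.77 without the array labelled DKO replicate 1), but without DKO replicate 2 the median was 0.17 and 2 of 8 were below 0. Of 20 macrophage genes 15 had a difference below 0 (median -0.29, -0.34 without the array labelled DKO replicate 1 and -0.15 without DKO replicate 2). The monocyte genes averaged 8.52, 6.51 and 7.83 in the arrays labelled DKO and 8.10, 7.74 and 8.08 in FFFF hearts, so the array labelled DKO replicate 1 was the highest of the 6 and DKO replicate 2 the lowest. Arg1, an enzyme of arginine breakdown in myeloid cells, had 8.23, 5.27 and 5.75 in the arrays labelled DKO and 8.21, 7.14 and 8.64 in FFFF hearts (difference -1.58, standard error 0.56, adjusted p = 0.67). It was -2.49 when the array labelled DKO replicate 1 was left out (adjusted p = 0.011). Msr1, a macrophage scavenger receptor, had a difference of -0.76 (adjusted p = 0.88) that was -0.07 without DKO replicate 2.

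Genes common to all leukocytes were read beside these lists. Of 15, 14 had a difference below 0 (median -0.41, -0.66 without the array labelled DKO replicate 1 and -0.04 without DKO replicate 2), but DKO replicates 2 and 3 were below all FFFF arrays in 1 of 15, against 9.51% of all features. Their mean was 8.76, 7.38 and 8.10 in the arrays labelled DKO and 8.85, 7.77 and 8.76 in FFFF hearts. Ptprc, which encodes CD45, had 8.00, 5.50 and 7.10 in the arrays labelled DKO and 8.38, 6.64 and 8.25 in FFFF hearts (difference -0.89, adjusted p = 0.87). In both genotypes replicate 2 was thus the lowest array for leukocyte genes. The cardiomyocyte structural genes ran the other way, with means of 11.95, 12.28 and 11.92 in the arrays labelled DKO and 11.79, 12.25 and 11.94 in FFFF hearts. The part of these differences between arrays in the values of the chemokine and neutrophil genes was not tested.

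Kinases and adaptors of leukocyte signaling gave 22 of 25 differences below 0 (median -0.30, -0.51 without the array labelled DKO replicate 1 and -0.09 without DKO replicate 2), with 10 of 10 in the Src, Syk and related kinases. Fgr, a Src-family kinase of myeloid cells, had 7.50, 4.87 and 6.07 in the arrays labelled DKO and 7.07, 6.54 and 6.93 in FFFF hearts (difference -0.70, adjusted p = 0.87). Vav1, an exchange factor of hematopoietic cells, had 6.35, 4.91 and 5.91 in the arrays labelled DKO and 6.97, 5.88 and 6.89 in FFFF hearts (difference -0.85, adjusted p = 0.82). Skap2, an adaptor of integrin signaling, had a difference of -0.96 (adjusted p = 0.78).

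Pram1, an adaptor of neutrophils and other myeloid cells, differed from the rest of its list in that the array labelled DKO replicate 1 did not lie with FFFF hearts. It had 4.43, 4.20 and 4.16 in the arrays labelled DKO and 4.77, 4.70 and 4.85 in FFFF hearts, and 4.15 to 4.37 in the 6 sham hearts. All 3 arrays labelled DKO were therefore close to the sham level, although the gene is low in every array. The difference was -0.51 (standard error 0.08, adjusted p = 0.14), and it was -0.59 without the array labelled DKO replicate 1 (adjusted p = 0.0069) and -0.48 without DKO replicate 2.

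Mir142, the host feature of a microRNA of hematopoietic cells on chromosome 11, is outside the naming rule and was picked with its values in view. Its mature products are shown because the seed (bases 2 to 8, in capitals) is what pairs with target transcripts, and both were taken from RefSeq (build GRCm38.p6):
mmu-miR-142a-5p: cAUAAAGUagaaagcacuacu
mmu-miR-142a-3p: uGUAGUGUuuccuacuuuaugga

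The feature had 5.76, 4.63 and 5.06 in the arrays labelled DKO and 7.43, 5.99 and 5.91 in FFFF hearts, with all 3 arrays labelled DKO below all FFFF arrays, and 4.25 to 4.48 in sham hearts. The difference was -1.30 (standard error 0.36, adjusted p = 0.65). Of 539 microRNA features in the table, 43 were separated in this way (7.98%) and 40 in the opposite way. The array measures total RNA with probes for the host feature, so its value is not a level of the mature microRNA.

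Adhesion of leukocytes needs selectins and ligands on endothelium and integrins on the leukocyte. All 9 leukocyte integrins and ligands had a difference below 0 (median -0.47, -0.92 without the array labelled DKO replicate 1 and -0.11 without DKO replicate 2). Of 7 endothelial molecules 5 did (median -0.21, -0.31 without the array labelled DKO replicate 1), but without DKO replicate 2 the median was 0.08, with 3 of 7 below 0. Selp, which encodes P-selectin, had 6.83, 4.63 and 5.99 in the arrays labelled DKO and 6.80, 7.27 and 6.84 in FFFF hearts (difference -1.16, standard error 0.38, adjusted p = 0.66). Sele, which encodes E-selectin, had 5.95, 4.60 and 5.63 in the arrays labelled DKO and 6.30, 5.85 and 5.78 in FFFF hearts (difference -0.58, adjusted p = 0.74). Both selectins were at the sham level in DKO replicate 2 (sham hearts 4.42 to 4.71 for Selp and 4.32 to 4.74 for Sele), whereas Icam1 had 6.89, 6.18 and 6.52 in the arrays labelled DKO and 6.59, 6.77 and 6.52 in FFFF hearts.

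Genes that mark endothelial cells as such were read beside them. Of 18, 16 had a difference below 0 (median -0.22, -0.34 without the array labelled DKO replicate 1 and -0.08 without DKO replicate 2), and their mean was 8.50, 8.15 and 8.47 in the arrays labelled DKO and 8.59, 8.74 and 8.43 in FFFF hearts. Kdr, the main receptor of vascular endothelial growth factor, had 9.23, 8.82 and 9.0 in the arrays labelled DKO and 9.27, 9.66 and 9.32 in FFFF hearts (difference -0.40, adjusted p = 0.79). Emcn had 9.62, 8.24 and 9.34 in the arrays labelled DKO and 9.51, 9.61 and 9.59 in FFFF hearts, a gap made by DKO replicate 2. The share of the endothelial markers in the values of Selp and Sele was not tested.

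Cytokines and their pathways had small medians. In the interleukin-6 family and its signaling 12 of 14 differences were below 0 (median -0.21), in the TNF family and colony-stimulating factors 13 of 14 (median -0.14), and among interleukin-1 cytokines and receptors 10 of 11 (median -0.17). Without the array labelled DKO replicate 1 the 3 medians were -0.40, -0.34 and -0.29. Without DKO replicate 2 they were -0.07, 0.03 and -0.09, and 6 of 14 genes of the TNF family and colony-stimulating factors were then below 0. Il1b had 7.55, 4.04 and 6.95 in the arrays labelled DKO and 7.85, 6.42 and 8.51 in FFFF hearts (difference -1.41, standard error 0.71, adjusted p = 0.77). Socs3, the feedback inhibitor of cytokine receptors, had 6.67, 5.36 and 6.24 in the arrays labelled DKO and 7.24, 6.56 and 6.93 in FFFF hearts (difference -0.82, standard error 0.29, adjusted p = 0.67). Jak2, the kinase bound to many of these receptors, had 8.48, 7.74 and 8.68 in the arrays labelled DKO and 9.04, 8.65 and 9.12 in FFFF hearts (difference -0.64, standard error 0.20, adjusted p = 0.66). Il6, which encodes the acute-phase cytokine interleukin-6, had 4.42, 3.99 and 5.31 in the arrays labelled DKO and 4.58, 4.57 and 6.17 in FFFF hearts (difference -0.53, standard error 0.37, adjusted p = 0.84). In Socs3 and in Jak2 each array labelled DKO was below the FFFF array of its number, the array labelled DKO replicate 1 included. The labels overlapped in both genes, however, and they do not pair the arrays by number.

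Tnf had 4.92, 4.28 and 4.91 in the arrays labelled DKO and 5.46, 4.99 and 5.26 in FFFF hearts, without overlap (difference -0.53, adjusted p = 0.73). Tnfaip3, a feedback inhibitor of NF-κB, had 5.23, 4.65 and 5.07 in the arrays labelled DKO and 5.54, 5.33 and 5.68 in FFFF hearts, also without overlap (difference -0.53, standard error 0.19, adjusted p = 0.67). Ripk2, the kinase of NOD receptors, had 5.57, 5.19 and 5.86 in the arrays labelled DKO and 5.98, 5.99 and 6.11 in FFFF hearts (difference -0.49, standard error 0.15, adjusted p = 0.66). These genes separated the labels in full, as 3.88% of all features did in that direction, but the list of 17 NF-κB subunits and inhibitors as a whole did not lean, with 10 differences below 0 and a median of -0.03. The 28 interferon-stimulated genes were split, 14 below 0 and 14 not, with a median of -0.03. Without the array labelled DKO replicate 1 that median was 0.08. Among 11 MHC class II genes 5 differences were below 0 (median 0.003), and among 13 complement components 6 were (median 0.06).

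**Figure D3:**
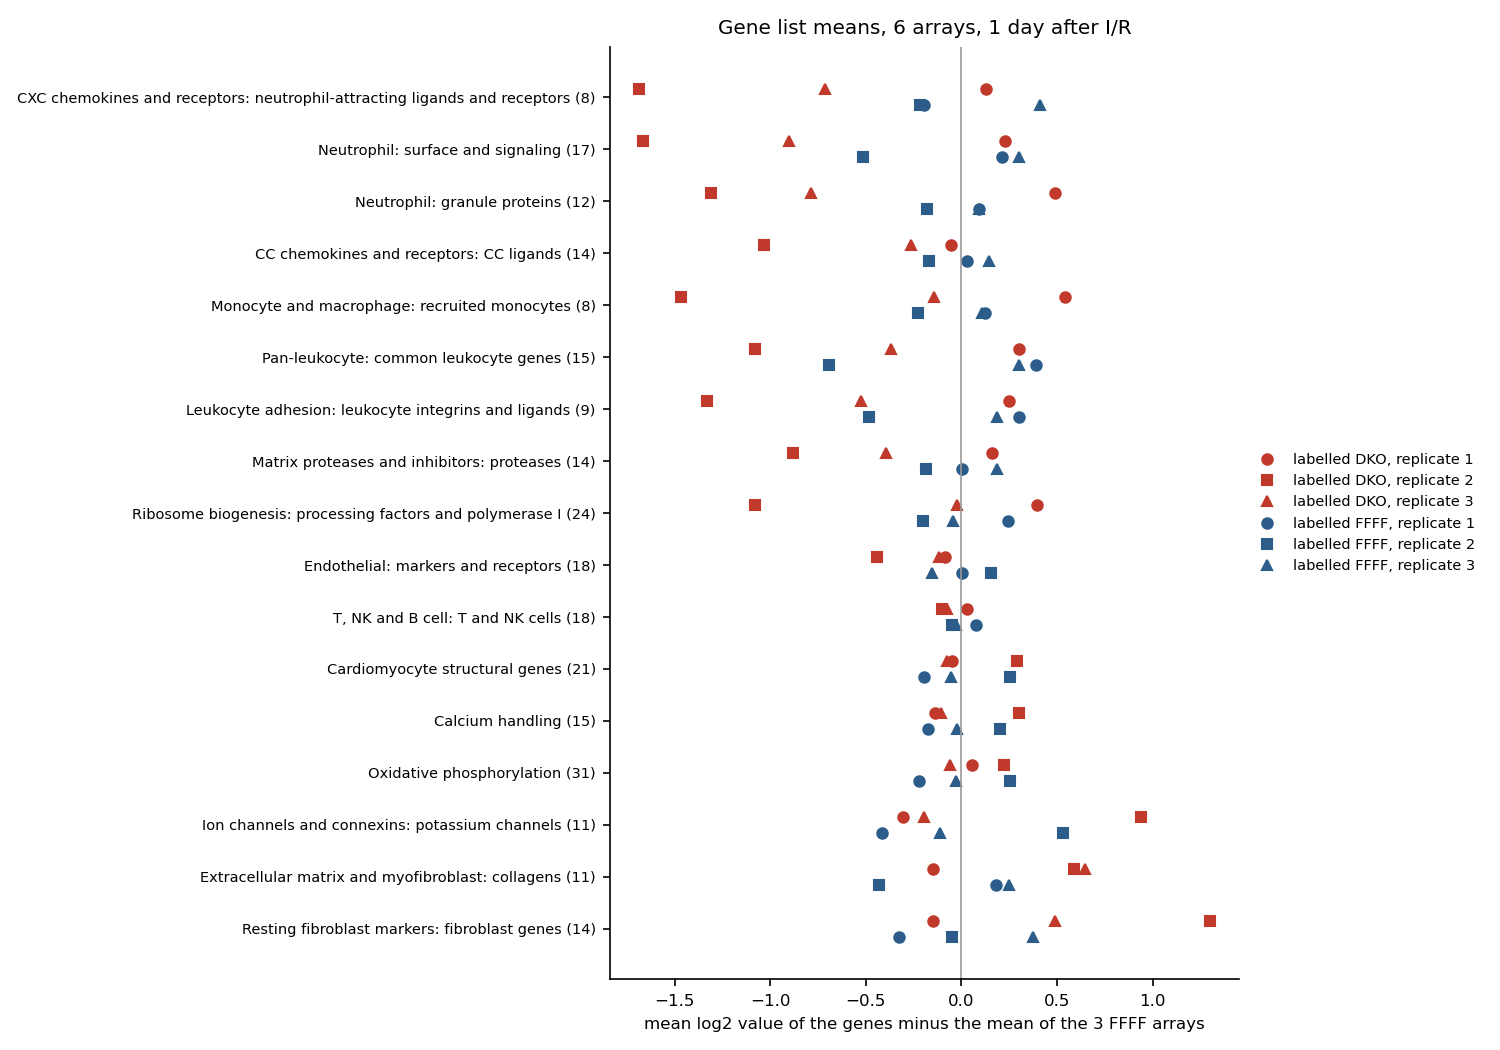
Mean log2 value of the genes of each list in each of the 6 arrays, as the distance from the mean of the 3 FFFF arrays (horizontal axis); numbers in parentheses are genes per list, colors the labelled genotype and symbols the replicate number. For the 8 neutrophil-attracting chemokine genes the arrays labelled DKO had means of 6.76, 4.95 and 5.92, against 6.44, 6.42 and 7.05 in FFFF hearts. The cardiomyocyte structural genes lie closer to 0, whereas the potassium channel genes had a mean of 7.63 in DKO replicate 2, against 6.28, 7.22 and 6.58 in FFFF hearts.

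Fibroblast and matrix genes ran opposite to the leukocyte genes. Of 14 markers of resting fibroblasts, 13 had a difference above 0 (52.5% of all features did), with a median of 0.46 (0.81 without the array labelled DKO replicate 1 and 0.07 without DKO replicate 2). Their mean was 8.65, 10.10 and 9.29 in the arrays labelled DKO and 8.47, 8.75 and 9.18 in FFFF hearts. Mfap4, a glycoprotein of elastic microfibrils, had 6.51, 10.28 and 7.98 in the arrays labelled DKO and 6.51, 5.70 and 7.26 in FFFF hearts (difference 1.77, standard error 0.68, adjusted p = 0.68). Pi16, a marker of adventitial fibroblasts, had 7.05, 9.63 and 7.61 in the arrays labelled DKO and 6.62, 7.23 and 7.16 in FFFF hearts (difference 1.10, standard error 0.49, adjusted p = 0.73). DKO replicate 2 was the highest of the 6 arrays in both genes, and the array labelled DKO replicate 1 was close to FFFF hearts.

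Mfap5, another microfibril gene, separated the labels in full, as 5.94% of all features did in that direction. It had 10.19, 10.92 and 10.72 in the arrays labelled DKO and 9.22, 9.94 and 10.06 in FFFF hearts (difference 0.87, standard error 0.32, adjusted p = 0.68). Pdgfra, a receptor by which cardiac fibroblasts are identified, had 10.07, 9.88 and 10.29 in the arrays labelled DKO and 10.03, 9.98 and 10.51 in FFFF hearts (difference -0.10, adjusted p = 0.96). Pdgfra was the only one of the 14 markers with a difference below 0, and Mfap5 the only one whose labels did not overlap. Sfrp2, a secreted modulator of Wnt signaling that was likewise picked with its values in view, had 5.90, 9.0 and 7.28 in the arrays labelled DKO and 5.56, 5.44 and 6.48 in FFFF hearts.

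Among 11 collagens, 10 differences were above 0 (median 0.41, 0.77 without the array labelled DKO replicate 1 and 0.17 without DKO replicate 2). Col1a1 had 9.21, 10.62 and 10.49 in the arrays labelled DKO and 9.98, 8.66 and 9.80 in FFFF hearts (difference 0.63, adjusted p = 0.83), and Col8a1, a short-chain collagen of injured vessels and heart, had 8.81, 9.91 and 9.79 in the arrays labelled DKO and 8.70, 8.12 and 9.02 in FFFF hearts (difference 0.89, standard error 0.37, adjusted p = 0.72). Postn, the periostin gene of activated fibroblasts, had 9.87, 11.26 and 11.19 in the arrays labelled DKO and 10.02, 8.89 and 10.45 in FFFF hearts (difference 0.99, standard error 0.42, adjusted p = 0.73). In these 3 genes DKO replicates 2 and 3 lay above the FFFF range together, and the array labelled DKO replicate 1 lay inside it. P3h2, a prolyl hydroxylase of collagen, had 6.85, 7.97 and 8.19 in the arrays labelled DKO and 6.57, 6.44 and 6.90 in FFFF hearts (difference 1.03, standard error 0.27, adjusted p = 0.65). The difference was 1.44 when the array labelled DKO replicate 1 was left out (adjusted p = 0.0068).

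The same lists leaned above 0 after sham surgery as well. In sham hearts the median difference of the fibroblast markers was 0.78 and that of the collagens 0.79, against 0.46 and 0.41 at 1 day. Mfap4 had 9.70, 9.38 and 9.69 in DKO sham hearts and 7.40, 7.29 and 7.49 in FFFF sham hearts, and Postn had 9.06, 9.14 and 9.97 in DKO sham hearts and 7.52, 7.81 and 7.88 in FFFF sham hearts. The arrays labelled DKO were therefore tighter in sham hearts, where all 3 lay above FFFF, than at 1 day. The change of the difference between sham and 1 day was -0.43 for Mfap4 and -0.67 for Postn, and neither was called (adjusted p = 1 for both).

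**Figure D4:**
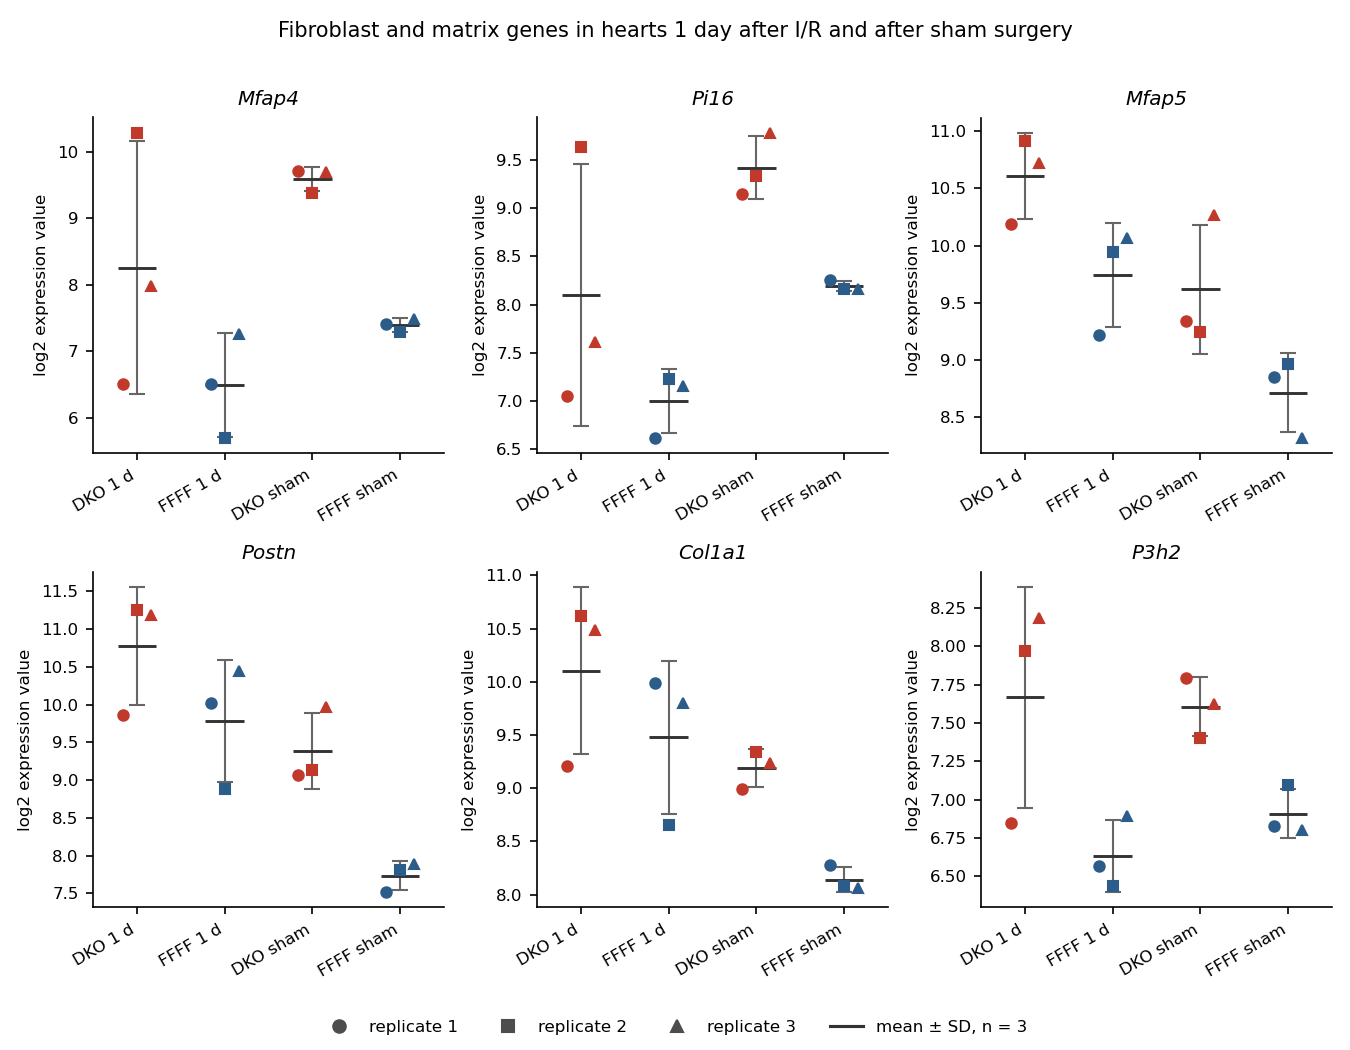
Log2 expression values (vertical axes) of fibroblast and matrix genes, 1 day after I/R and after sham surgery; symbols mark the replicate number, and bars give the mean ± SD of 3 arrays. In sham hearts all DKO arrays lie above all FFFF arrays in each of the 6 genes, whereas at 1 day the array labelled DKO replicate 1 lies within the FFFF range in all but Mfap5.

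Proteases of the matrix leaned below 0, with exceptions. Of 14 proteases, 11 had a difference below 0 (median -0.41, -0.61 without the array labelled DKO replicate 1 and -0.10 without DKO replicate 2). Adamts4, an aggrecanase induced by interleukin-1, had 5.86, 4.89 and 5.03 in the arrays labelled DKO and 6.88, 6.00 and 6.20 in FFFF hearts. The labels did not overlap, as in 3.88% of all features, and the difference was -1.10 (standard error 0.24, adjusted p = 0.55). With the array labelled DKO replicate 1 left out it was -1.40 (adjusted p = 0.027). It was at 4.11 to 4.51 in sham hearts, so each heart after I/R lay above them, the arrays labelled DKO by less. Mmp2, the gelatinase of fibroblasts, went the other way, with 8.06, 9.81 and 7.93 in the arrays labelled DKO and 6.66, 8.33 and 7.82 in FFFF hearts (difference 1.00, standard error 0.44, adjusted p = 0.73). Its inhibitor Timp2 had a difference of 0.60 (adjusted p = 0.77). Spp1, the osteopontin gene of macrophages and fibroblasts, had 10.33, 6.86 and 9.91 in the arrays labelled DKO and 11.38, 8.97 and 10.90 in FFFF hearts (difference -1.38, standard error 1.11, adjusted p = 0.87).

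Of 13 smooth muscle and pericyte genes, 11 had a difference above 0 (median 0.14). Cspg4, the NG2 proteoglycan of pericytes, had 6.90, 7.23 and 6.94 in the arrays labelled DKO and 6.51, 6.60 and 6.14 in FFFF hearts (difference 0.60, standard error 0.17, adjusted p = 0.65). Its labels did not overlap, as in 5.94% of all features. This gene kept its gap without the array labelled DKO replicate 1 (0.67) and without DKO replicate 2 (0.50), but neither fit called it.

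The genes of the cardiomyocyte itself, the cell in which the kinase was deleted, were close between the labels. The 15 calcium handling genes had differences from -0.12 to 0.27, and none of the 21 structural genes was apart by more than 0.35. Ryr2, the calcium release channel and a substrate of CaMKII, had 11.35, 11.95 and 11.46 in the arrays labelled DKO and 11.22, 12.02 and 11.71 in FFFF hearts. Atp2a2, the calcium pump of the sarcoplasmic reticulum, had 13.02, 13.15 and 13.08 in the arrays labelled DKO and 12.84, 13.29 and 13.13 in FFFF hearts, and its regulator Pln had 12.70, 13.54 and 13.17 in the arrays labelled DKO and 12.67, 13.26 and 13.33 in FFFF hearts. In each of these genes the spread within a label was wider than the difference between the labels. The 19 genes of MEF2 factors, class IIa histone deacetylases and calcineurin, the transcriptional route downstream of the kinase, had a median of 0.04.

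Csrp3, the muscle LIM protein of the Z-disc, was the only 1 of the 21 structural genes without overlap, and 3.88% of all features were separated in that direction. It had 13.23, 12.59 and 13.23 in the arrays labelled DKO and 13.33, 13.39 and 13.39 in FFFF hearts (difference -0.35, standard error 0.14, adjusted p = 0.68). DKO replicate 2 was at the sham level, which was 12.58 to 12.77. Nppa, the atrial natriuretic peptide gene, had 13.75, 13.93 and 13.93 in the arrays labelled DKO and 13.93, 13.75 and 13.93 in FFFF hearts, which are the top values that the shared distribution of the arrays allows, so a difference could not be seen there. Myh7, the fetal myosin heavy chain, had 8.24, 12.30 and 9.58 in the arrays labelled DKO and 8.16, 10.02 and 9.59 in FFFF hearts, and Acta1, skeletal α-actin, had 11.97, 12.20 and 12.23 in the arrays labelled DKO and 11.93, 11.29 and 11.91 in FFFF hearts (difference 0.42, adjusted p = 0.81). Ankrd2, a stretch-responsive ankyrin protein, had 9.19, 5.75 and 8.27 in the arrays labelled DKO and 9.40, 9.12 and 8.06 in FFFF hearts, while sham hearts had 4.71 to 5.08. DKO replicate 2 was thus the lowest array in Csrp3 and Ankrd2, but the highest in Myh7.

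Potassium channel genes, which lay lower after I/R than after sham surgery, were high in that array. The 11 genes averaged 6.39, 7.63 and 6.50 in the arrays labelled DKO and 6.28, 7.22 and 6.58 in FFFF hearts, compared with 7.90 to 8.27 in sham hearts. Kcnh2, the channel of the rapid delayed rectifier current, had 6.70, 8.92 and 6.85 in the arrays labelled DKO and 6.57, 7.46 and 6.76 in FFFF hearts. The pacemaker channel Hcn4 was low in all arrays but did not overlap, as in 3.88% of all features. It had 3.91, 3.91 and 4.06 in the arrays labelled DKO and 4.45, 4.11 and 4.15 in FFFF hearts (difference -0.28, adjusted p = 0.69).

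Energy metabolism was close to even. Of 31 genes of oxidative phosphorylation 26 had a difference above 0 with a median of 0.08, and of 30 genes of fatty acid uptake and oxidation 23 did with a median of 0.07. Without DKO replicate 2 the medians were 0.01 and -0.07, and without the array labelled DKO replicate 1 they were 0.09 and 0.12. The array means of the oxidative phosphorylation genes were 10.47, 10.63 and 10.35 in the arrays labelled DKO and 10.19, 10.67 and 10.38 in FFFF hearts, so the labels overlapped. The clock gene Dbp ranged widely within each label, with 7.54, 10.51 and 9.48 in the arrays labelled DKO and 7.28, 8.60 and 8.90 in FFFF hearts. Ace, which encodes angiotensin-converting enzyme, had 9.29, 10.71 and 9.77 in the arrays labelled DKO and 8.57, 9.71 and 9.11 in FFFF hearts, each array labelled DKO above the FFFF array of its number (difference 0.79, standard error 0.30, adjusted p = 0.68). Gpx3, an extracellular glutathione peroxidase, showed the same order, with 10.73, 11.91 and 10.98 in the arrays labelled DKO and 9.84, 10.87 and 10.67 in FFFF hearts (difference 0.75, adjusted p = 0.68). In Ace and in Gpx3 the labels overlapped, and they do not pair the arrays by number.

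Genes of cell death were examined because cardiomyocytes die by apoptosis and necrosis after I/R. The 16 genes of the BCL2 family had a median of 0.06 and the 14 genes of necroptosis, death receptors and caspases a median of -0.09. Without the array labelled DKO replicate 1 these medians were -0.01 and -0.17. In the BCL2 family 6 of 16 differences were below 0 (lowest -0.99). In the other list 10 of 14 were (lowest -0.71), against 47.4% of all features. The genes named next all had a difference above 0 and do not stand for both directions. Bok, a pro-apoptotic effector, had 7.13, 6.92 and 6.91 in the arrays labelled DKO and 6.74, 6.46 and 6.22 in FFFF hearts (difference 0.51, standard error 0.15, adjusted p = 0.65). Bik, a pro-apoptotic BH3-only protein, had 5.45, 5.70 and 5.62 in the arrays labelled DKO and 5.11, 5.30 and 5.27 in FFFF hearts (difference 0.37, standard error 0.11, adjusted p = 0.66). Casp9, the initiator caspase of the mitochondrial pathway, had 5.96, 6.33 and 5.96 in the arrays labelled DKO and 5.82, 5.83 and 5.65 in FFFF hearts (difference 0.31, standard error 0.10, adjusted p = 0.66). These 3 genes did not overlap between the labels, the array labelled DKO replicate 1 included. With Zbp1, a sensor of nucleic acids in necroptosis that is outside the naming rule (difference 0.21, adjusted p = 0.97), all 3 arrays labelled DKO were above all FFFF arrays in 4 of 30 cell death genes, against 5.94% of all features. Bcl2, which opposes apoptosis, had 8.07, 8.81 and 8.54 in the arrays labelled DKO and 8.14, 8.01 and 7.92 in FFFF hearts (difference 0.45, standard error 0.14, adjusted p = 0.66), and in sham hearts it had 8.63, 8.89 and 8.81 in DKO and 7.80, 7.75 and 7.99 in FFFF.

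Genes of growth had wide spreads within each label. The 29 genes of mitosis and replication averaged 5.47, 5.63 and 6.13 in the arrays labelled DKO and 6.20, 5.23 and 6.49 in FFFF hearts (24 differences below 0, median -0.26, and -0.09 without the array labelled DKO replicate 1). The 24 genes of ribosome biogenesis averaged 8.55, 7.07 and 8.13 in the arrays labelled DKO and 8.40, 7.95 and 8.11 in FFFF hearts, where DKO replicate 2 was at the sham level of 7.01 to 7.21. Their median was -0.24, and it was -0.56 without the array labelled DKO replicate 1 and 0.22 without DKO replicate 2. Wdr12, a processing factor of the large ribosomal subunit, had 6.58, 5.70 and 6.28 in the arrays labelled DKO and 6.84, 6.36 and 6.73 in FFFF hearts (difference -0.45, adjusted p = 0.68).

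The genes with the smallest p over all features stood apart with little spread within a label. Zfp52, which encodes a zinc finger protein, had 4.26, 3.88 and 4.21 in the arrays labelled DKO and 5.11, 5.42 and 4.83 in FFFF hearts (difference -1.0, standard error 0.14, adjusted p = 0.11), and 4.33 to 4.72 in sham hearts. Rpl37, a ribosomal protein gene, and Soat2, an enzyme of cholesterol ester formation, had differences of -0.53 and -0.55 (adjusted p = 0.30 for both). On the side above 0, Dpf1, a subunit of neuronal chromatin remodeling complexes, had 5.06, 5.22 and 5.17 in the arrays labelled DKO and 4.84, 4.75 and 4.60 in FFFF hearts (difference 0.42, standard error 0.07, adjusted p = 0.30). Mrgbp, a component of a histone acetyltransferase complex, had 6.38, 6.34 and 6.37 in the arrays labelled DKO and 5.78, 5.91 and 5.80 in FFFF hearts (difference 0.54, standard error 0.10, adjusted p = 0.30). Aph1b, a subunit of γ-secretase, and Tmem252, a transmembrane protein, had differences of 0.71 and 0.69 (adjusted p = 0.34 for both). In these 7 genes the arrays labelled DKO did not overlap FFFF hearts, and the array labelled DKO replicate 1 lay with its label. Of all features, 3.88% were separated below and 5.94% above. The 7 genes were picked by their small p over the same arrays, which favors such a separation, so it is no separate check of that label.

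**Figure D5:**
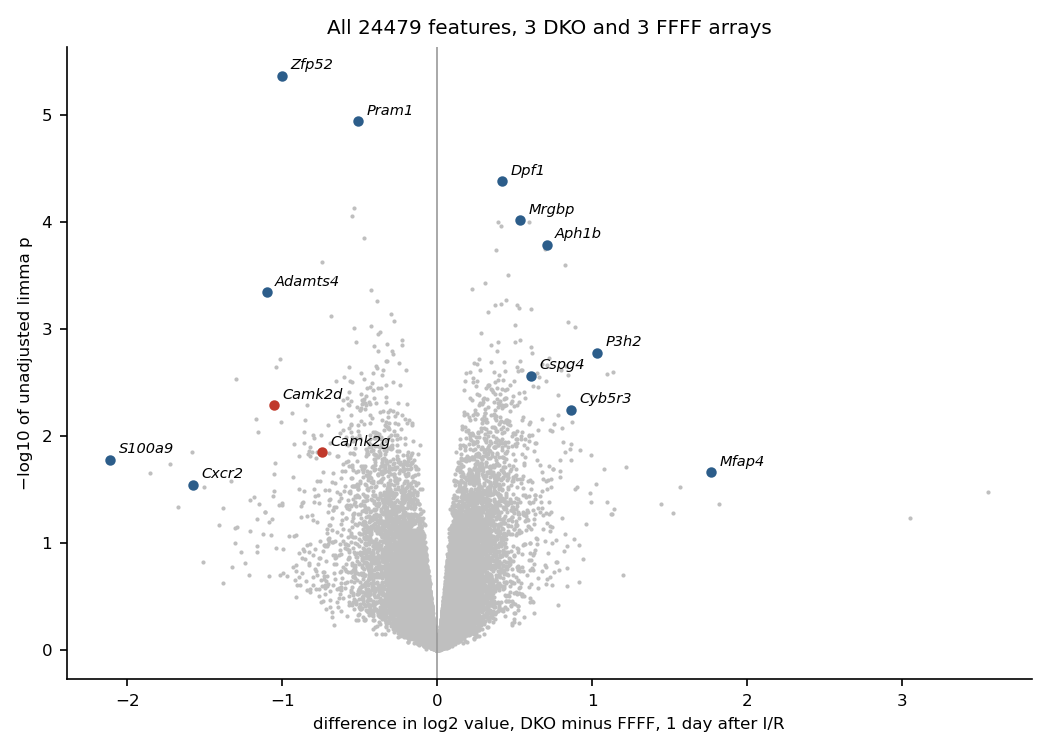
Difference in log2 value (DKO minus FFFF, horizontal axis) against -log10 of the unadjusted limma p (vertical axis) for all 24479 features 1 day after I/R, with 3 arrays in each group; red points are the targeted genes and blue points other genes of the text. Zfp52 has the smallest p (adjusted p = 0.11), and S100a9 with -2.11 has the most negative difference.

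The widest differences belonged to features with unequal arrays. Besides Esr1 (difference 3.05, standard error 1.48, adjusted p = 0.76), the feature of the ribosomal protein gene Rpl29, also picked with its values in view, had 9.28, 9.45 and 10.30 in the arrays labelled DKO and 4.34, 4.62 and 9.40 in FFFF hearts (difference 3.56, standard error 1.51, adjusted p = 0.73). Rpl29 was between 7.41 and 8.99 in all 6 sham hearts and had 4.82, 4.19 and 9.09 in the arrays labelled DKO and 4.74, 4.50 and 9.29 in FFFF hearts at 5 days, so its low values appeared under both labels. Ribosomal protein genes have near-identical copies in the genome, so the values of Rpl29 and Rpl37 are reported as uncertain. Whether copies reach these probes was not tested.

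Without the array labelled DKO replicate 1, limma called 15 genes, 12 below 0 (0.049% of those tested) and 3 above 0 (0.0123%), and 2283 genes (9.33%) had an unadjusted p under 0.05. Without DKO replicate 2 it called 0 genes (1025 with an unadjusted p under 0.05, 4.19%), and without DKO replicate 3 also 0 (2664, 10.9%). Among the genes below 0 were Camk2d, S100a9, S100a8, Il1r2, Arg1, Pram1, Zfp52 and Adamts4, which are given above, and Cd33, a sialic acid-binding receptor of myeloid cells. Cd33 had 9.20, 7.08 and 6.66 in the arrays labelled DKO and 8.87, 8.42 and 8.83 in FFFF hearts (difference -1.84 without that array, adjusted p = 0.0068). Among the genes above 0 were P3h2 and Cyb5r3, a reductase of the endoplasmic reticulum and mitochondria, which had 9.90, 11.20 and 11.14 in the arrays labelled DKO and 9.89, 9.71 and 10.02 in FFFF hearts (difference 1.29 without that array, adjusted p = 0.0069). The array labelled DKO replicate 1 was singled out by its Camk2d and Camk2g values, and with 2 arrays left the fit takes the spread of DKO hearts from all groups. Those groups include sham and 5-day hearts, in which S100a9 and Il1r2 were near the floor with little spread. In the genes named here the array labelled DKO replicate 1 held the highest DKO value where the difference was below 0 and the lowest where it was above 0. Leaving it out therefore widens these gaps.

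The differences at 1 day were set against those of the other days, which share no array with them. Over all features, the difference at 1 day correlated with that in sham hearts at Pearson's r = 0.189 (Spearman's rho = 0.129) and with that at 5 days at r = 0.121 (rho = 0.00335). These are descriptions across genes of the same platform, and genes are not independent replicates. The median difference of the neutrophil surface genes was 0.01 in sham hearts and -0.06 at 5 days, against -0.72 at 1 day, and that of the neutrophil-attracting chemokine genes was 0.05 in sham hearts and -0.07 at 5 days, against -0.80 at 1 day. The neutrophil surface genes averaged only 4.23 to 4.31 in sham hearts and 4.47 to 5.20 at 5 days. The chemokine genes averaged 4.63 to 4.78 and 4.73 to 5.10. Values so near the floor leave little room for a difference, so this contrast cannot show that the difference is particular to 1 day. FFFF hearts at 1 day exceeded FFFF sham hearts by a median of 1.36 in the neutrophil surface genes, and the arrays labelled DKO exceeded DKO sham hearts by 0.86. The genes common to leukocytes had a median difference of -0.34 at 5 days and of 0.31 in sham hearts. At 5 days, however, their means overlapped between the labels. They were 8.97, 8.45 and 8.38 in the arrays labelled DKO, inside the wide FFFF range (7.72, 8.99 and 10.29).

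A test of the change itself called 1 gene between sham and 1 day (0.00409% of those tested, with 4.6% at an unadjusted p under 0.05, 1.82% lower and 2.77% higher). Between 1 and 5 days it called 0 genes, and gene-wise analysis of variance also called 0 (1207 genes, or 4.93%, had an unadjusted p under 0.05, 2.09% lower and 2.84% higher). The called gene was A1cf, which encodes a cofactor of RNA editing by APOBEC1. It had 4.05, 4.21 and 3.95 in the arrays labelled DKO and 4.0, 3.98 and 3.93 in FFFF hearts at 1 day, but 6.56, 6.99 and 6.62 in DKO sham hearts and 3.99, 3.88 and 4.04 in FFFF sham hearts. Its difference thus changed by -2.65 between sham and 1 day (standard error 0.33, adjusted p = 0.038), a call that was lost with the replicate number as a block in the fit of all arrays and with gene-wise analysis of variance. With each of the 12 arrays of those groups left out in turn, the call was lost 11 times and was kept only without the array labelled DKO replicate 1 at 1 day. For S100a9, Cxcr2, Il1r2 and Camk2d the changes from sham to 1 day were -2.07, -1.58, -1.77 and -0.51, and none was called (adjusted p = 1 for each).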

How the data were processed

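RNA of left ventricular myocardium was hybridised to Affymetrix mouse gene arrays, 1 array per sample. As deposited, each value is a log2 expression level. The authors derived it from raw intensities with RMA and quantile normalization, using a custom chip definition file (version 18) with 1 feature per Entrez gene. RMA is credited to the submitters' processing notes, and its version is not given there. Of the 18 arrays, 17 have identical sorted values, so a difference is relative to the other genes of an array. No background or detection value was at hand, and precision is limited by having 3 arrays a group. Of 24479 features, 23281 were named by the platform annotation and 556 by RefSeq, and 642 have no symbol. Scan dates and slides were not used here.

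All 24479 features of the 18 arrays were fitted with a mean for each of the 6 groups in limma 3.58.1 (R 4.3.3, lmFit and eBayes), and p-values were adjusted by Benjamini-Hochberg over all features, with a threshold of 0.05. The comparisons were DKO minus FFFF at 1 day, and that difference minus the same at sham and at 5 days. The fit was tested on simulated data, drawn as independent normal values with the same SD for a gene in all groups. The groups of these data were unequally spread, so the simulation does not show how the fit behaves under that spread. Alternatives were the methods' gene-wise analysis of variance, an intensity trend in the moderation, the same with robust estimates, array weights, the compared groups alone, median centring, a further quantile normalization, a filter on low values (3 or more arrays over their 40th percentile), the replicate number as a block, other thresholds, and leaving out each array in turn.

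The members and gene lists were chosen with earlier results of these data known. Genes were named by rule: every CaMKII isoform gene, the chemokine pathway genes of the study's RT-PCR, the 10 genes with the smallest p in each direction (predicted genes left unnamed), up to 4 members with the smallest p and the first member of each sub-list, all members of sub-lists of 8 or fewer, the 5 genes with the smallest p in each comparison of days, and the 10 with the smallest p when the array labelled DKO replicate 1 or DKO replicate 2 is left out. The text gives a selection of the genes the rule allows and says where a gene is outside it.

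Deviations from the group means over all features correlated at 0.382, 0.529 and 0.360 between DKO and FFFF arrays of the same replicate number at 1 day, and between -0.490 and 0.219 for the other pairs. The numbers may therefore pair the arrays, which rests on the values and not on the labels. The reported differences, standard errors and p-values come from the fit without this block, and the block is an alternative. Upstream windows and mature microRNAs were read from RefSeq tables of build GRCm38.p6.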

Additional observations from a re-analysis of the deposited data

Results flagged for a closer look

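The difference of A1cf between DKO and FFFF hearts was not the same after sham surgery and at 1 day. It was 0.10 at 1 day (limma adjusted p = 0.97) and 2.75 after sham surgery (adjusted p = 0.00035), a change of -2.65 (standard error 0.33, adjusted p = 0.038) by the test of the difference between days. At 5 days, A1cf had 3.81, 4.03 and 5.11 in the arrays labelled DKO and 4.04, 3.94 and 3.94 in FFFF hearts. The array with 5.11 is the one with high Esr1 (11.40) at 5 days, and Esr1 was 11.91, 11.83 and 11.86 in DKO sham hearts. At 1 day, A1cf was low in DKO replicates 2 and 3, where Esr1 was 10.06 and 9.72. Whether A1cf goes with the day or with particular arrays was not tested. The A1cf call was absent with gene-wise analysis of variance and with the replicate number as a block over all arrays, and it was lost in 11 of 12 fits that left out 1 array of those groups.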

How the results depend on the processing

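The count of 0 called genes at 1 day became 1 with a variance trend and 1 with a robust trend (Zfp52), and 365 genes had an unadjusted p under 0.01 (146 below 0 and 219 above). Leaving out 1 array at a time gave 0 to 15 called genes: 15 without the array labelled DKO replicate 1, 3 without FFFF replicate 2, 1 without FFFF replicate 3, and 0 for each other array. Between 1 day and sham, the count of 1 gene became 0 with gene-wise analysis of variance and 0 with the replicate block over all arrays, 243 genes had an unadjusted p under 0.01, and leave-one-out counts were 0 to 5, with 5 without the array labelled DKO replicate 1. Between 1 and 5 days, 223 genes had an unadjusted p under 0.01, and leave-one-out counts were 0 to 2, with 2 without FFFF 5-day replicate 1 and 1 without DKO 5-day replicate 3. The replicate block changed no other call of a result in the text. Camk2d differed by -1.59 to -0.68 with 1 array left out and was called only without the array labelled DKO replicate 1. The cause of these shifts was not tested.

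Of 93 other named genes, 3 changed sign with array weights: Camk2a (-0.063), Cxcl1 (0.0075) and Pln (-0.023). With 1 array left out, 12 changed sign, none of them called. Their ranges were -0.34 to 0.65 for Camk2a, -0.44 to 0.18 for Camk2b, -0.76 to 0.26 for Cxcl1, -0.013 to 0.17 for Cxcr1, -1.68 to 0.071 for Ccl2, -0.27 to 0.080 for Icam1, -0.20 to 0.071 for Pdgfra, -0.15 to 0.96 for Kcnh2, -0.35 to 1.68 for Myh7, -0.27 to 0.12 for Ryr2, -0.12 to 0.10 for Atp2a2 and -0.16 to 0.27 for Pln. Of 74 gene sub-lists, 30 kept the sign of their median in every leave-one-out. Genes near the floor of the array, such as Ly6g, Pram1 and Hcn4, are limited by signal over background, and Nppa by the ceiling.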
